A study of Mus musculus with 12 samples.

Results

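Embryonic acinar cells were compared with adult acinar cells on 6 of the 12 arrays of the series, 3 arrays for each of the 2 groups. Both groups came from C57Bl6/J wildtype mice, were freshly isolated by what the labels call collagen-digestion, and went straight into RNA extraction with a column kit and biotin labelling for Affymetrix arrays. The embryonic stage, the adult age, sex, any pooling of animals and whether the numbered replicates were separate animals are not stated in the labels. The p-values therefore measure only the spread between arrays within groups, estimated over all 12 arrays. The other 6 arrays were 3 of acinar-to-ductal metaplasia kept for 7 days in 3D collagen with 50 ng/ml Tgf-alpha and 3 of low-passage tumor cells. They entered the main comparison only through the shared estimate of the spread, the background level and the choice of the brightest probe set. That choice concerned the 1082 genes with more than 1 probe set.

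Acinar cells make, store and secrete the digestive enzymes of the exocrine pancreas. Their precursors arise from a multipotent epithelium that also gives ducts and, through the transcription factor Neurog3, endocrine cells, and this epithelium grows inside a mesenchyme whose signals it needs. Enzyme genes switch on in the embryo, but several enzymes, the Reg lectins and the regulated secretory response are known to reach their full levels late in gestation or after birth and weaning.

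A gene was represented by its brightest probe set among those with exactly 1 symbol, which gave 22180 genes. A gene was called when its Benjamini-Hochberg adjusted p in limma was under 0.05 and its log2 difference, embryonic minus adult, was at least 1 in size. In embryonic cells 2217 genes (10.0%) were called higher and 580 (2.61%) lower, together 12.6%. The median log2 difference over all genes was -0.09. All 3 embryonic arrays lay above all 3 adult arrays for 22.0% of genes and below them for 20.9%. These shares are the background for every list count in the following paragraphs. Values after ± beside a difference are standard errors from the fit, with n = 3 arrays per group. For each gene they rest on 1 spread estimated over all 4 groups. They can therefore be wider or narrower than the 2 compared groups alone would give. For Cela3b the ± was 0.34, with standard deviations of 0.08 on embryonic and 0.04 on adult arrays. For Reg2 it was 1.40, with standard deviations of 4.34 and 0.06. Levels are log2 signals with the arrays in the order 1, 2 and 3. Background is a level of 3.62, below which 95% of the group means of 1394 odorant and vomeronasal receptor genes lay, since pancreas is not known to use these receptors. Where all 3 arrays of the dimmer group lay at or under it, the change is given as "at least", computed against it.

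The scale of the values affects the counts. The 13 measured housekeeping genes had a median difference of 0.40, with means of 9.37, 9.44 and 9.42 on embryonic arrays and 9.04, 9.01 and 9.01 on adult arrays. Their medians per array went the other way, with 9, 9.26 and 9.19 on embryonic arrays and 9.41, 9.29 and 9.28 on adult arrays. Setting each array's mean of these genes equal moved the median of all genes to -0.48 and gave 1346 genes higher and 2112 lower, which is 38.9% of calls higher against 79.3% with the deposited values. Setting each array's median of these genes equal gave 2841 higher and 376 lower (88.3% higher). Quantile normalization gave 1751 higher and 986 lower (64.0% higher), and cyclic loess gave 1759 higher and 786 lower (69.1% higher). Differences are reported on the deposited scale. Between scalings the median differences of the following lists changed sign, and no direction is given for them as lists: Hox, Wnt, ion transport, ribosomal protein, erythroid, glucocorticoid response, mesenchyme factor, intestinal, lymphocyte, oxidative phosphorylation, ribosome biogenesis, smooth muscle and xenobiotic genes.

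**Figure D1:**
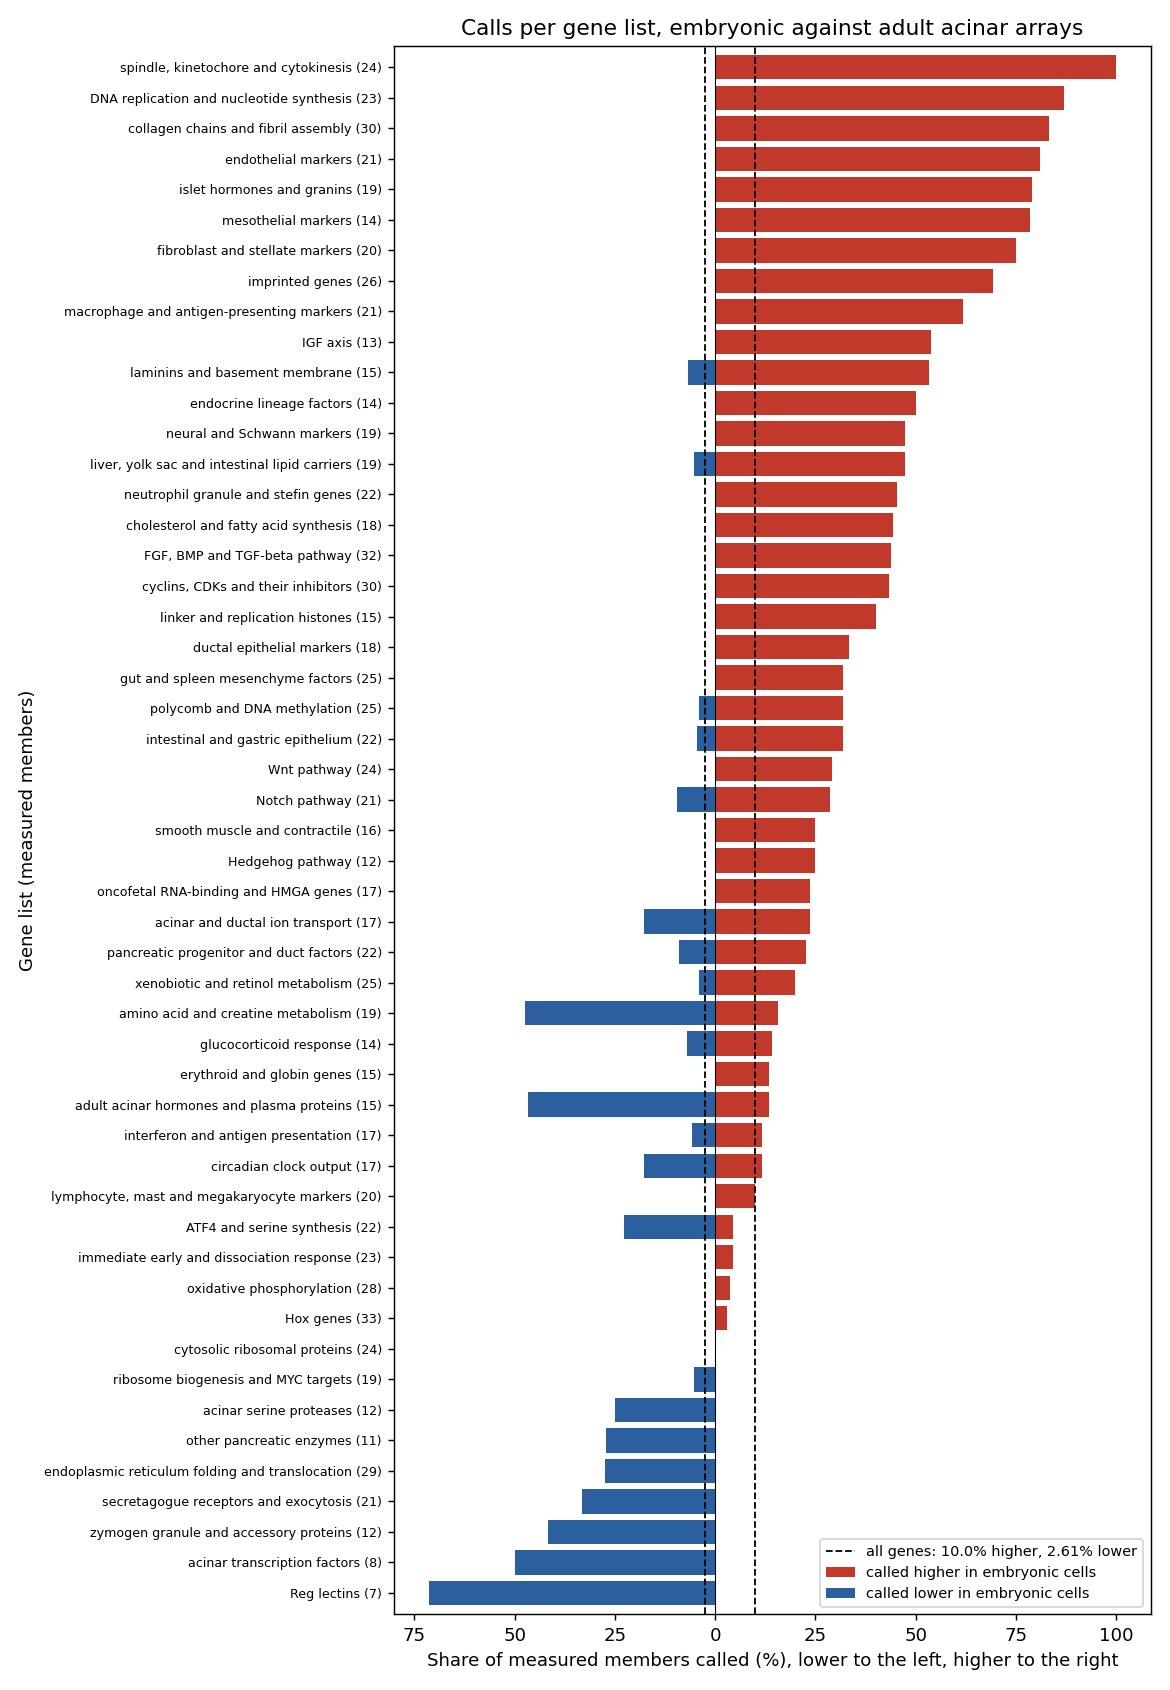
Share of the measured members of each gene list called higher (red, to the right) or lower (blue, to the left) in embryonic acinar arrays, in percent, with the number of measured members in brackets. Dashed lines mark the shares over all genes, 10.0% higher and 2.61% lower; all 24 spindle genes were higher, and 5 of 7 Reg lectins were lower.

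The embryonic arrays differed from each other by at least 2 log2 units in a small number of genes. Their order, without regard to size, was uneven over many more genes. Among the 2217 genes called higher, array 1 was the highest embryonic array for 1304 and array 2 the lowest for 1086. Among the 580 called lower, array 1 was the lowest for 311 and the highest for 70. Array 3 stood at least 2 log2 units above both other embryonic arrays for 43 genes, array 2 for 13 genes and array 1 for 1 gene, and array 1 stood at least 2 units below both others for 25 genes. The same gap was found for at most 2 genes in either direction on any adult array. Array 3 carried more signal for a set of acinar and adult secreted genes, such as Reg2 at 3.37, 3.84 and 11.11 and Ctrc at 5.32, 5.09 and 9.45 on the embryonic arrays. Array 2 carried liver genes, with Alb, the albumin gene, at 4.76, 10.51 and 4.68. Intestinal genes were higher on arrays 2 and 3, with the enterocyte lectin gene Lgals4 at 4.67, 8.46 and 10.19. Array 1 had the highest levels of most neutrophil genes, with the resistin-like gene Retnlg at 6.68, 5.37 and 3.74. Over the whole list of 22180 genes the correlation between 2 embryonic arrays was still 0.979 to 0.984, against 0.967 to 0.971 between adult arrays and 0.891 to 0.914 across the groups; genes are not independent, so this describes likeness only. Results that rest on 1 of these arrays are given with and without it.

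**Figure D2:**
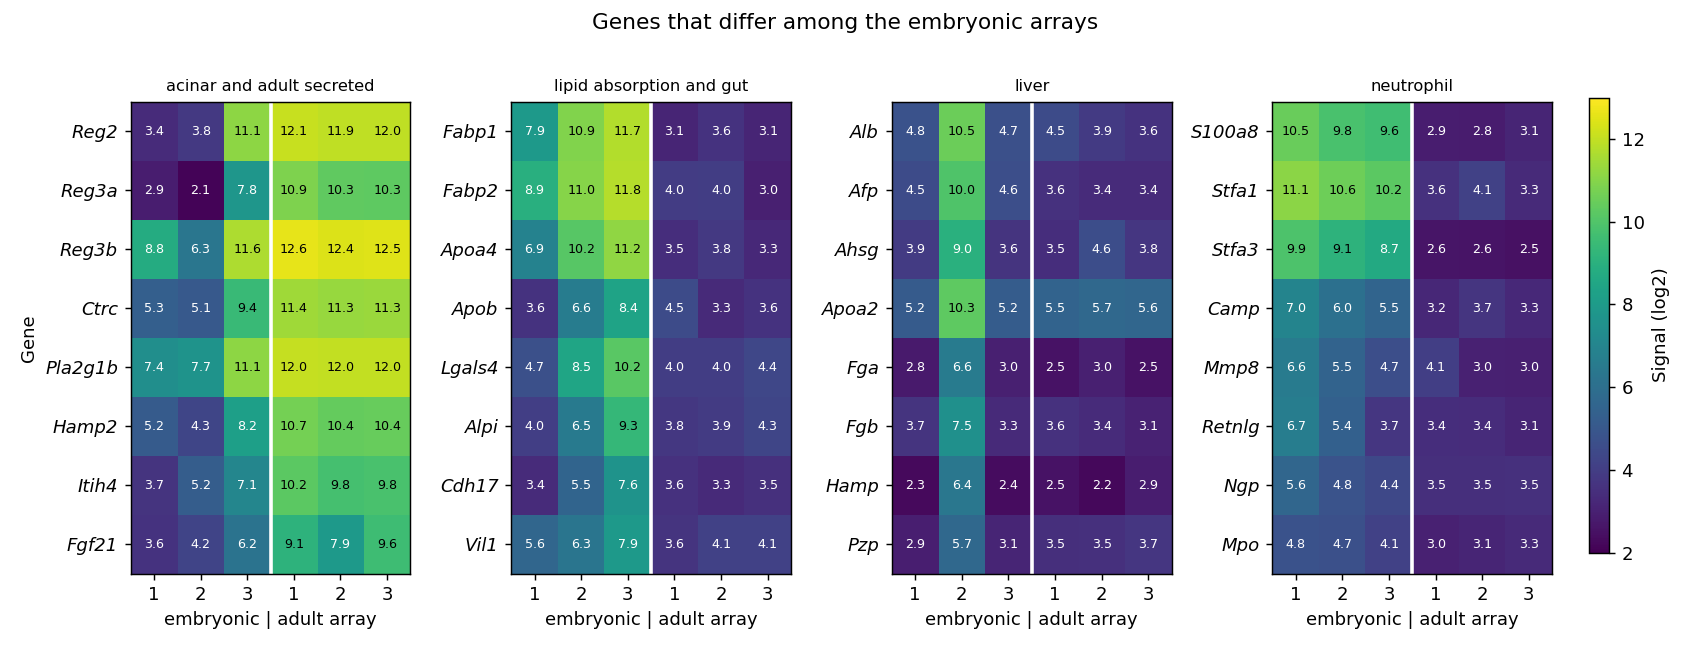
Log2 signal of 8 genes in each of 4 sets on the 3 embryonic arrays (left of the white line) and the 3 adult arrays (right of it), with the value printed in each cell and shown as colour. The first set is highest on embryonic array 3 among the embryonic arrays, the gut set is lowest on embryonic array 1, the liver set is high on embryonic array 2 alone, and the neutrophil set is highest on embryonic array 1.

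Both groups carried the measured defining markers of acinar cells well above background. Both also carried markers of other cells of the organ, which are given by cell type in later paragraphs. Ctrb1, the chymotrypsinogen B gene, lay at 13.23, 13.22 and 13.29 on embryonic arrays and at 13.36, 13.27 and 13.32 on adult arrays. Cpa1, the carboxypeptidase A1 gene, lay at 12.87, 12.83 and 12.97 on embryonic arrays and at 13.15, 13.14 and 13.11 on adult arrays. The elastase gene Cela1 lay at 12.44, 12.41 and 13.06 on embryonic arrays and at 13.29, 13.19 and 13.21 on adult arrays. None of the 3 was called, with differences of -0.07 ± 0.27, -0.24 ± 0.18 and -0.59 ± 0.48. The highest value on any of the 6 arrays was 13.36, so these genes sat near the top of the scale, where differences may be compressed. This was not tested. Of the other defining markers, Bhlha15 (-2.18), Amy2b (-1.18) and Ptf1a (-1.08) were called lower, while Prss2 (-0.42) and Prss1 (0.66) were not called.

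Among 12 measured acinar serine proteases, 3 were called lower in embryonic cells and none higher, and the median difference was -0.57. Chymotrypsin C, encoded by Ctrc, degrades trypsinogen that activates too early. Ctrc lay at 5.32, 5.09 and 9.45 on embryonic arrays and at 11.42, 11.30 and 11.34 on adult arrays. Embryonic array 3 was more than 4 units above the other embryonic arrays and still below every adult array. Ctrc fell by 4.73 ± 0.80 (adjusted p = 0.000641), and its difference was -6.15 without embryonic array 3, -4.08 without array 1 and -3.97 without array 2. The trypsinogen gene Try5 lay at 6.56, 6.49 and 7.48 on embryonic arrays and at 8.85, 9.33 and 9.22 on adult arrays, and fell by 2.29 ± 0.37 (adjusted p = 0.00044). The groups did not overlap for it, and embryonic array 3 was again the nearest to the adult arrays. As these are bulk samples, fewer cells of a type and less RNA per cell cannot be told apart here or in any result that follows.

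Cela3a, an elastase gene, was the third call, and the other 9 serine proteases were not called. Ctrl, the chymotrypsin-like protease gene, lay at 11.27, 11.28 and 13.04 on embryonic arrays and at 13.36, 13.30 and 13.28 on adult arrays, with a difference of -1.45 ± 0.53 (adjusted p = 0.0568). Without embryonic array 3 its difference was -2.04 and it was called. Try4, another trypsinogen gene, had a difference of -0.78 and was called without that array, at -1.03. The number of serine proteases called lower was 5 without embryonic array 3 and 3 when any other single array was left out, and it was 5 on the housekeeping mean. Klk1 (tissue kallikrein), Prss2 (a trypsinogen) and Cela3b (an elastase) had differences of -0.54, -0.42 and -0.31. Prss1, the cationic trypsinogen gene, had 12.16, 11.67 and 11.09 on embryonic arrays and 10.69, 10.98 and 11.28 on adult arrays, a difference of 0.66 with overlapping groups. Prss3 was dim in both groups, at 3.88, 4.01 and 3.55 on embryonic and 4.63, 3.06 and 4.12 on adult arrays. Whether probe sets of close paralogs, such as trypsins, elastases, amylases, Reg genes and stefins, share signal was not tested.

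The neighbouring elastase genes Cela3a and Cela3b differed in the comparison. Cela3a lay at 5.26, 5.51 and 5.13 on embryonic arrays and at 8.97, 8.57 and 8.0 on adult arrays. Cela3b lay at 12.47, 12.59 and 12.63 on embryonic arrays and at 12.84, 12.86 and 12.91 on adult arrays. Neither gene's groups overlapped, but only Cela3a was called, 9.28-fold lower in embryonic cells with a difference of -3.21 ± 0.25 (adjusted p = 1.13e-06), against -0.31 ± 0.34 for Cela3b; the difference between the 2 genes was not tested. Their promoters, from 250 bases before to 50 bases after the annotated start, are shown because the pair lies side by side on chromosome 4, on the minus strand, at chr4:137409742-137410041 for Cela3a and chr4:137430471-137430770 for Cela3b (RefSeq, GRCm38.p6). Capitals mark the E-box CACCTG, a 6-base motif searched on both strands that acinar basic helix-loop-helix factors are known to use.
Cela3a: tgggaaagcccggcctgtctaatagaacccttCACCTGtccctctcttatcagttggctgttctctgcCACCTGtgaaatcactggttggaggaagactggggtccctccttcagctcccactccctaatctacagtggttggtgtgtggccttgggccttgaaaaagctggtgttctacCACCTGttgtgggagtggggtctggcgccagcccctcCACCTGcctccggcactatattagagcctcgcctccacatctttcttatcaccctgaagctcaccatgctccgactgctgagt
Cela3b: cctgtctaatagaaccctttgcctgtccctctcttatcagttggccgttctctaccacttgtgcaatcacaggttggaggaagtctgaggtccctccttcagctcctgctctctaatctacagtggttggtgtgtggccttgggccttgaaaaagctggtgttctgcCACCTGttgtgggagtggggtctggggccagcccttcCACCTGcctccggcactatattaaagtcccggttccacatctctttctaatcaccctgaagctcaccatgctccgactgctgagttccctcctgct
The Cela3a window held 4 copies, with first bases 218, 182, 70 and 33 bases before the start, and the Cela3b window held 2, at 83 and 46 bases before it. At a shift of 13 bases the windows were identical at 234 of 287 aligned positions (81.5%). Of 32851 promoter windows of the same length, 20.2% held the motif at least once and 2.88% held it 2 times or more. A match describes the letters only and is neither a shown binding site nor a cause of the values.

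**Figure D3:**
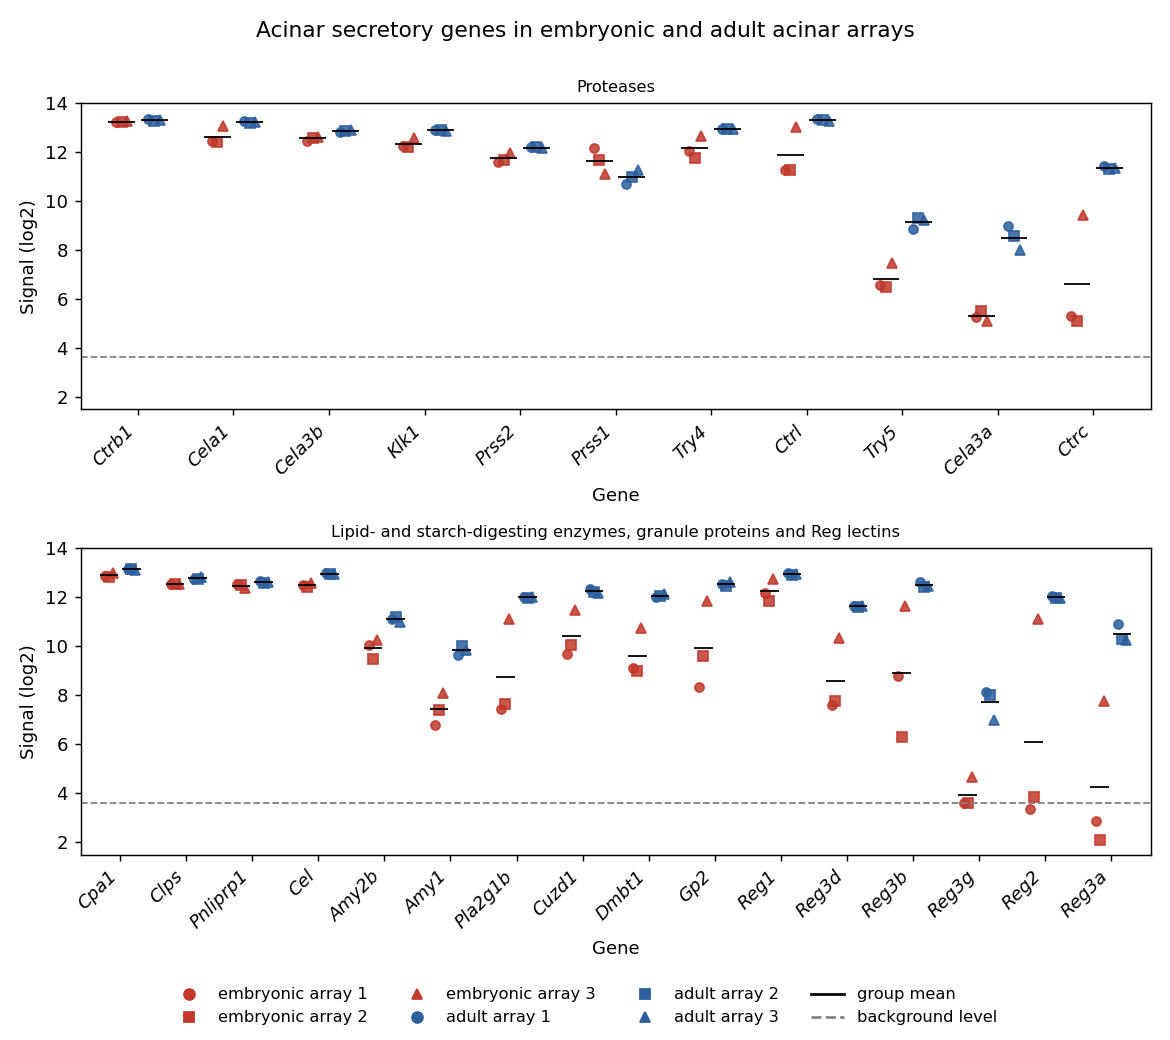
Log2 signal of acinar protease genes (upper panel) and of other enzyme, granule and Reg genes (lower panel) on embryonic arrays (red, left of each pair) and adult arrays (blue, right), with symbols for arrays 1 to 3, black bars for group means and a dashed line at the background level of 3.62. Ctrb1, Cpa1, Clps and Pnliprp1 lie close together in both groups, while Ctrc, Pla2g1b, Gp2, Reg2 and Reg3a are lower in embryonic cells, with embryonic array 3 nearest to the adult arrays.

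Of 11 other pancreatic enzymes measured, 3 were lower in embryonic cells and none higher, with a median difference of -0.50. Pla2g1b, the secreted phospholipase A2, lay at 7.42, 7.66 and 11.12 on embryonic arrays and at 12.02, 11.98 and 12.01 on adult arrays. It fell by 3.27 ± 0.76 (adjusted p = 0.00592), and its difference was -4.46 without embryonic array 3 and -2.61 without embryonic array 1. Amylases, which digest starch, were lower at both measured genes. Amy1 lay at 6.77, 7.41 and 8.08 on embryonic arrays and at 9.64, 10.01 and 9.84 on adult arrays, and fell by 2.41 ± 0.27 (adjusted p = 2.28e-05). Amy2b lay at 10.04, 9.48 and 10.24 on embryonic arrays and at 11.11, 11.21 and 10.99 on adult arrays, a fall of 1.18 ± 0.33 (adjusted p = 0.0167). The Amy2b call was lost with array weights and without embryonic array 2 (-0.96).

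The other enzymes of the list were not called. Clps, the colipase gene, and Pnliprp1, a lipase-related protein gene, had differences of -0.24 ± 0.32 and -0.15 ± 0.42. Cel (bile salt-stimulated lipase), Pnliprp2 (a galactolipase), Cpb1 (carboxypeptidase B1) and the ribonuclease gene Rnase1 had differences of -0.46, -0.81, -0.50 and -0.56. All 3 embryonic arrays lay below all 3 adult arrays for 10 of the 11 enzymes, against 20.9% of all genes, but the size passed 1 log2 unit for only 3 of them. The exception was the deoxyribonuclease gene Dnase1, which was dim, at 3.87, 4.06 and 3.36 on embryonic arrays and 3.99, 4.11 and 3.77 on adult arrays.

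Among 12 zymogen granule and accessory genes, 5 were lower and none higher, with a median of -0.78; the count was 3 without embryonic array 1 and under quantile normalization, 8 on the housekeeping mean, and 4 without any other single array. Gp2, the major glycoprotein of the granule membrane, lay at 8.32, 9.62 and 11.84 on embryonic arrays and at 12.52, 12.44 and 12.61 on adult arrays. It fell by 2.60 ± 0.67 (adjusted p = 0.011), with differences of -3.55 without embryonic array 3 and -1.79 without embryonic array 1. Dmbt1, a scavenger receptor protein, lay at 9.13, 8.98 and 10.74 on embryonic arrays and at 12, 12.05 and 12.13 on adult arrays, and fell by 2.44 ± 0.43. Cuzd1, a granule membrane protein, fell by 1.83 ± 0.41. The Golgi-ER cargo gene Tmed11 fell by 1.10. Erp27, an ER protein of the disulfide isomerase family, fell by 1.23 ± 0.40, a call lost with quantile normalization, with array weights and without any 1 of the 6 arrays. The trypsin inhibitor gene Spink1 and the granule protein gene Sycn had differences of -0.43 and -0.44, which did not pass the threshold.

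The Reg genes encode secreted C-type lectins that the pancreas and gut make in regeneration and inflammation, and 5 of 7 measured were lower in embryonic cells, with a median of -3.58. Reg3a lay at 2.86, 2.09 and 7.78 on embryonic arrays and at 10.89, 10.31 and 10.26 on adult arrays. Reg2 lay at 3.37, 3.84 and 11.11 on embryonic arrays and at 12.06, 11.95 and 11.96 on adult arrays. Both were at or near background on embryonic arrays 1 and 2 and high on embryonic array 3, which still lay below every adult array. Reg3a fell by 6.24 ± 1.04 (adjusted p = 0.000559) and Reg2 by 5.88 ± 1.40 (adjusted p = 0.00681). Without embryonic array 3 the differences were -8.01 for Reg3a and -8.38 for Reg2. Without embryonic array 1 they were -5.55 and -4.51, and without embryonic array 2 they were -5.17 and -4.75.

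Reg3b lay at 8.77, 6.31 and 11.64 on embryonic arrays and at 12.61, 12.40 and 12.46 on adult arrays, and fell by 3.58 ± 0.87 (adjusted p = 0.0076). Its difference was -4.95 without embryonic array 3 and -2.29 without embryonic array 2. Reg3d lay at 7.60, 7.75 and 10.35 on embryonic arrays and at 11.63, 11.62 and 11.64 on adult arrays, and fell by 3.06 ± 0.56, with -3.96 without embryonic array 3. Reg3g lay at 3.60, 3.60 and 4.65 on embryonic arrays and at 8.12, 8.02 and 7.0 on adult arrays, a fall of 3.76 ± 0.36 (adjusted p = 6.86e-06) that moved little with any single array. Reg1 was not called, with 12.17, 11.83 and 12.74 on embryonic arrays against 12.98, 12.92 and 12.96 on adult arrays, and Reg4 was at or near background in both groups. The count was 5 without any single array and under 3 other scalings, and 6, with Reg1, on the housekeeping mean.

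Several hormones and plasma proteins that adult acinar cells carried were also low in embryonic cells, 7 of 15 listed genes being lower and 2 higher. Hamp2, a hepcidin paralog, lay at 5.17, 4.28 and 8.23 on embryonic arrays and at 10.68, 10.38 and 10.45 on adult arrays. Itih4, an inter-alpha-trypsin inhibitor heavy chain, lay at 3.66, 5.25 and 7.07 on embryonic arrays and at 10.23, 9.75 and 9.83 on adult arrays. Fgf21, a hormone that stimulates enzyme secretion, lay at 3.62, 4.25 and 6.17 on embryonic arrays and at 9.11, 7.93 and 9.58 on adult arrays. For all 3 genes embryonic array 3 was the highest embryonic array and lay below the adult arrays. They fell by 4.61 ± 0.73, 4.61 ± 0.57 and 4.19 ± 0.53, and without embryonic array 3 the differences were -5.78, -5.48 and -4.94. The difference of Hamp2 was -3.80 without embryonic array 2, and that of Itih4 was -3.78 without embryonic array 1. Gal, the galanin gene, Vtn, the vitronectin gene, and Lifr, the receptor of leukemia inhibitory factor, fell by 1.83, 1.57 and 1.43. Serpina6, which encodes corticosteroid-binding globulin, went the other way, with 9.14, 9.79 and 6.68 on embryonic arrays and 3.90, 3.89 and 4.22 on adult arrays, a rise of 4.53 ± 0.66 (adjusted p = 0.00021); this was 3.91 without embryonic array 2 and 5.46 without embryonic array 3.

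The transcription factors that hold acinar identity were lower or showed negative differences. All 8 measured factors had every embryonic array below every adult array, 4 were called lower, and the median difference was -0.93. Bhlha15 (Mist1), which scales up the secretory apparatus, lay at 7.56, 8.21 and 7.83 on embryonic arrays and at 10.01, 10.00 and 10.13 on adult arrays. It fell by 2.18 ± 0.19 (adjusted p = 2.91e-06), or 4.53-fold. Gata4, a zinc-finger factor of the early pancreas and acinar cells, lay at 6.12, 6.47 and 6.23 on embryonic arrays and at 7.68, 7.64 and 7.84 on adult arrays, a fall of 1.45 ± 0.18 (adjusted p = 4.83e-05). Both factors were separated between the groups on every array.

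Ptf1a, the factor that drives enzyme genes in a complex with Rbpjl, lay at 8.04, 8.34 and 7.02 on embryonic arrays and at 8.92, 8.80 and 8.92 on adult arrays. Its fall of 1.08 ± 0.36 (adjusted p = 0.0393) rested on embryonic array 3: without that array the difference was -0.69 and the call was lost, as it was without embryonic array 1 or any single adult array. Embryonic array 3, the highest embryonic array for Reg2 and Ctrc, was the lowest for Ptf1a. Foxp2, a forkhead factor, fell by 1.01 ± 0.18, a call lost without embryonic array 1 (-0.99), adult array 1 (-0.88) or adult array 2 (-0.92). Rbpjl (-0.85 ± 0.23), the nuclear receptor gene Nr5a2 (-0.73 ± 0.23), Xbp1 (-0.66), which drives the unfolded protein response, and the bZIP factor gene Creb3l1 (-0.77) did not reach 1 log2 unit, though Rbpjl was called without embryonic array 2 (-1.05). All 8 factors were called lower with arrays centred on the housekeeping mean, and 2 were with arrays centred on the housekeeping median. Counts without a single array ranged from 2 to 5.

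The probe sets of 484 microRNA genes gave 6 called higher and 13 lower, beside shares of 10.0% higher and 2.61% lower over all genes. The share lower was thus near that of all genes, and the share higher was below it. Of these microRNA genes 275 (56.8%) were at or under background on all 6 arrays, against 24.8% of all genes. The array does not separate a mature miRNA from its precursor. The cluster of Mir216a, Mir216b and Mir217, known for its expression in the exocrine pancreas, was chosen for description after its values were seen. Their mature sequences (RefSeq, GRCm38.p6, plus strand of chromosome 11) are shown with the seed, bases 2 to 8, in capitals, because the seeds of Mir216a and Mir216b are nearly alike.
miR-216a-5p, chr11:28757018-28757039: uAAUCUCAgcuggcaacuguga
miR-216b-5p, chr11:28746204-28746225: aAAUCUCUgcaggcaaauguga
miR-217-5p, chr11:28763761-28763783: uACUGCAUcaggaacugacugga
Mir216a lay at 2.90, 3.05 and 3.55 on embryonic arrays and at 4.66, 4.97 and 5.25 on adult arrays. All embryonic arrays were at or under background and all adult arrays above it, so it was at least 2.53-fold lower in embryonic cells (adjusted p = 1e-04). Mir217 lay at 2.38, 2.50 and 2.49 on embryonic arrays and at 3.38, 3.68 and 3.43 on adult arrays, and was called lower (adjusted p = 7.33e-05), but with 5 of the 6 arrays under background no size is given, and the call was lost without adult array 2 and under 3 other scalings. Mir216b was not called, with 2.30, 2.56 and 2.53 on embryonic arrays and 2.69, 3.10 and 2.63 on adult arrays.

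Receptors for secretagogues and the exocytosis machinery included 7 genes lower and none higher of 21, with a median of -0.76; without a single array the count was 4 to 8, and over scalings 4 to 12. Among receptors, the muscarinic receptor gene Chrm3, which carries the cholinergic signal to acinar cells, fell by 1.09 ± 0.16. The gastrin receptor gene Cckbr (at least 1.54-fold) and the VIP receptor gene Vipr1 (at least 1.61-fold) were lower, with all embryonic arrays at or under background; the Cckbr call was lost without adult array 3, where the bound was 1.35-fold. Cckar, the cholecystokinin receptor of mouse acinar cells, lay at 11.17, 11.60 and 11.20 on embryonic arrays and at 12, 12.09 and 12.17 on adult arrays, a difference of -0.76 ± 0.22 that did not reach the fold threshold on the deposited scale. The calcium release channel gene Itpr2 fell by 1.01. Gap junction genes were lower, with Gjb2 at 7.59, 8.42 and 7.99 on embryonic arrays and 9.91, 9.45 and 9.99 on adult arrays (a fall of 1.78 ± 0.46) and Gjb1 falling by 1.57 ± 0.26. Rab26, a granule GTPase, fell by 1.51 ± 0.20, while Rab3d (-0.74) and the granule SNARE gene Vamp8 (-0.29) were not called.

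Ion and water transport genes split, with 4 higher and 3 lower of 17. The acinar aquaporin gene Aqp12 fell by 1.53, the potassium channel gene Kcnq1 by 1.33, and the anion exchanger gene Slc26a6 fell by 1.10. The cytosolic carbonic anhydrase gene Car2, which is found in duct cells and in red cells, lay at 6.63, 8.14 and 5.97 on embryonic arrays and at 2.83, 3.81 and 3.17 on adult arrays. It rose by 3.64 ± 0.43 (adjusted p = 3.94e-05), or 3.03 without embryonic array 2, its highest. The water channel gene Aqp1 rose by 2.06 ± 0.20 and the sodium pump subunit gene Atp1b1 by 1.84 ± 0.19. Cftr, the chloride channel of duct cells, was at or under background on all 6 arrays.

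The machinery that folds and clears secretory proteins in the endoplasmic reticulum was lower in part, with 8 of 29 genes lower, none higher and a median of -0.59. Derl3, a derlin of that pathway, lay at 6.93, 7.34 and 7.46 on embryonic arrays and at 9.73, 9.52 and 9.66 on adult arrays, and fell by 2.39 ± 0.37 (adjusted p = 0.000304). The ubiquitin ligase gene Syvn1 fell by 1.87 ± 0.25, its partner Sel1l fell by 1.39, Herpud1 fell by 1.43 ± 0.22 and Edem1 fell by 1.29. Ero1b, the ER oxidase of secretory cells, fell by 1.57 ± 0.20. Chaperones and translocon genes stayed nearer to 0, with Hspa5 (BiP) at -0.60, Calr at -0.01, Canx at 0.00 and the translocon subunit gene Sec61b at -0.09. The count was 13 on the housekeeping mean, 11 with cyclic loess and 6 on the housekeeping median.

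Genes of the ATF4 response and of serine synthesis gave 5 lower and 1 higher of 22, with a median of -0.63. Chac1, a glutathione-degrading enzyme, lay at 5.83, 6.53 and 6.79 on embryonic arrays and at 9.53, 8.80 and 9.50 on adult arrays, and fell by 2.89 ± 0.34 (adjusted p = 3.63e-05). The cystine transporter gene Slc7a11 fell by 2.39 ± 0.46 and the mitochondrial folate enzyme gene Mthfd2 by 1.40 ± 0.23. Atf4 itself had a difference of -0.53 and the serine synthesis gene Psat1 one of -0.13. The glycogen-binding protein gene Stbd1 rose by 2.61 ± 0.24. The count lower was 4 to 8 without a single array and 3 to 11 over scalings.

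Amino acid and creatine metabolism gave 9 lower and 3 higher of 19. The amino acid transporter gene Slc7a8 lay at 7.61, 7.72 and 9.51 on embryonic arrays and at 11.05, 10.81 and 11.07 on adult arrays, and fell by 2.70 ± 0.41, or to a difference of -3.31 without embryonic array 3. Gatm, which makes the creatine precursor, fell by 1.52, and the branched-chain aminotransferase gene Bcat2 fell by 1.53 ± 0.25. Cbs and Cth, both of transsulfuration, fell by 1.26 and 1.23. Glutamine synthetase (Glul) and the transporter gene Slc43a1 rose by 1.76 ± 0.21 and 1.52 ± 0.17.

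Endocrine genes were higher in the embryonic cells. Neurog3, which commits progenitors to the endocrine fate and is silent in most adult cells, lay at 8.50, 8.80 and 8.06 on embryonic arrays and at 3.79, 3.46 and 3.35 on adult arrays. It rose by 4.92 ± 0.27, 30.3-fold (adjusted p = 5.11e-08). Isl1, an islet homeodomain factor, lay at 7.98, 7.09 and 6.97 on embryonic arrays and at 3.87, 4.50 and 4.18 on adult arrays, and rose by 3.16 ± 0.30. Both were separated between the groups on every array, and 7 of 14 endocrine lineage factors were higher. St18 and Rfx6, 2 further endocrine regulators, were at least 2.21-fold and at least 2.62-fold higher. Neurod1, which was near background in both groups, Pax4 (0.02), Insm1 (-0.05) and the beta-cell factor gene Mafa (-0.59) were not called.

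Among islet hormones and granins, 15 of 19 were higher and none lower, with a median of 2.81. Ghrl, the ghrelin gene of the epsilon cells that are common in the fetal pancreas, lay at 9.96, 9.36 and 10.05 on embryonic arrays and at 3.74, 4.19 and 3.63 on adult arrays, a rise of 5.94 ± 0.26 (adjusted p = 7.21e-09). The peptide YY gene Pyy lay at 11.55, 11.33 and 11.51 on embryonic arrays and at 7.05, 7.22 and 6.55 on adult arrays, a rise of 4.52 ± 0.24. The secretory granule gene Chgb and the zinc transporter gene Slc30a8 rose by 4.28 ± 0.24 and 4.08 ± 0.25. Gcg (glucagon) lay at 11.95, 11.78 and 12.05 on embryonic arrays and at 10.33, 10.63 and 10.27 on adult arrays, and rose by 1.52 ± 0.39. Sst (somatostatin) rose by 2.81 ± 0.27 and Ins2 (insulin) by 1.97 ± 0.38. Adult arrays thus held islet hormone signal too, at a lower level. The mean of the list was 9.02, 8.59 and 8.81 on embryonic arrays and 6.18, 6.51 and 5.94 on adult arrays. The part that endocrine cells in the isolates had in other results was not tested.

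**Figure D4:**
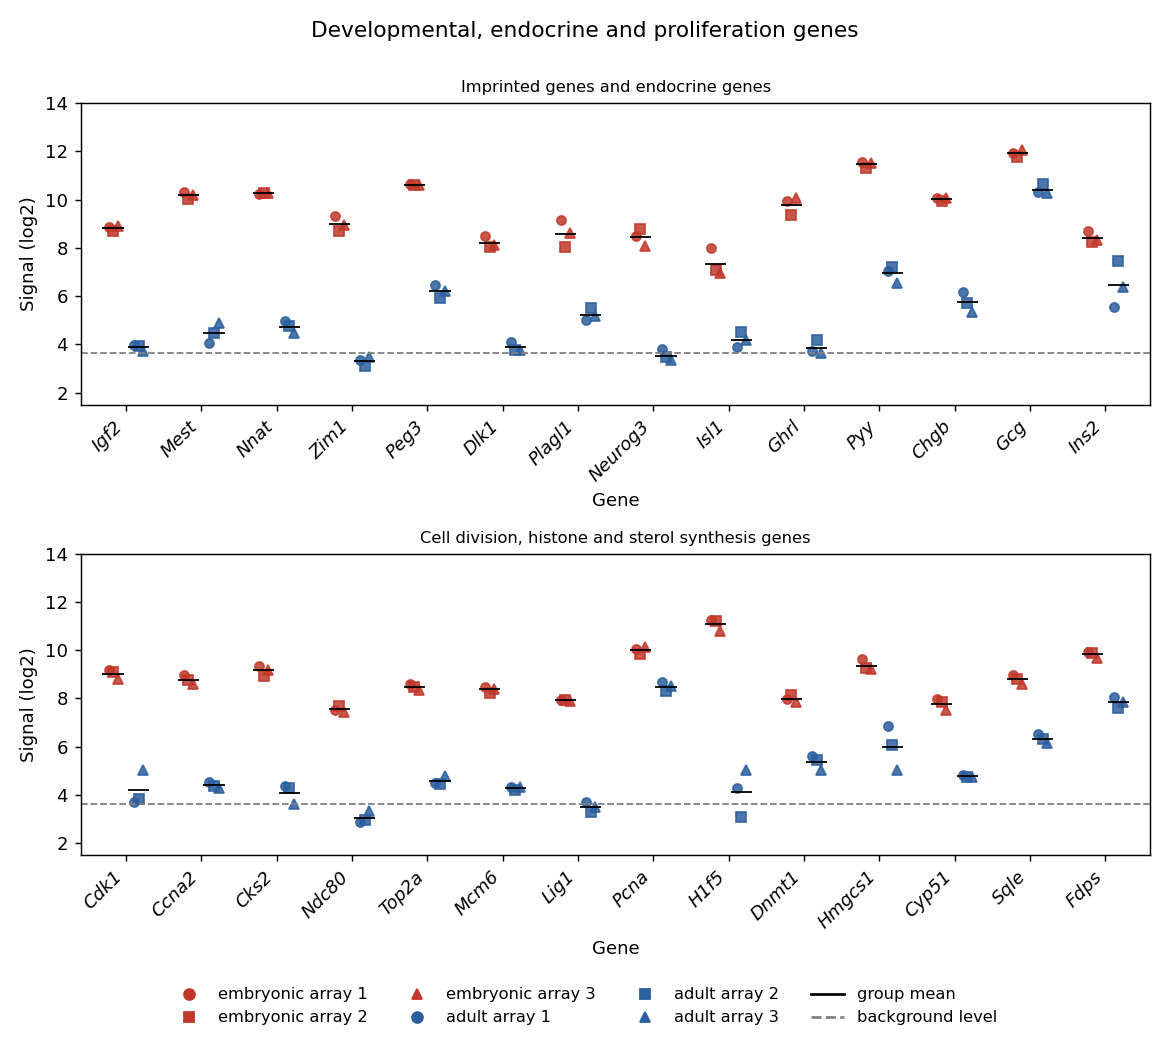
Log2 signal of imprinted and endocrine genes (upper panel) and of division, histone and sterol genes (lower panel) on embryonic arrays (red, left of each pair) and adult arrays (blue, right), with symbols for arrays 1 to 3, black bars for group means and a dashed line at background, 3.62. For every gene shown the 3 embryonic arrays lie above the 3 adult arrays, with Neurog3 at 8.06 to 8.80 on embryonic arrays against 3.35 to 3.79 on adult arrays.

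Progenitor and duct factors gave 5 higher and 2 lower of 22, with 4 to 8 higher over scalings. Sox4, an SRY-box factor of endocrine and ductal development, lay at 8.92, 8.95 and 8.87 on embryonic arrays and at 6.55, 6.57 and 6.33 on adult arrays, and rose by 2.43 ± 0.18. Bicc1, an RNA-binding protein of developing ducts, rose by 2.17 ± 0.49, the lymphatic and pancreatic homeobox gene Prox1 by 2.11 ± 0.19, Hhex by 1.35 and the FGF-responsive factor gene Etv5 by 2.03 ± 0.39 (1.44 without adult array 2). The classical progenitor factors Sox9 (0.09), Pdx1 (0.58), Hnf4a (0.11), Foxa2 (-0.50), Gata6 (0.75) and Nkx6-1 (0.94) were not called. Tead2 fell by 1.22 and Foxa3 fell by 1.20.

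Of 18 ductal epithelial markers 6 were higher and none lower. Cldn6, an embryonic claudin, lay at 7.69, 8.38 and 7.64 on embryonic arrays and at 4.47, 3.89 and 3.79 on adult arrays, a rise of 3.85 ± 0.24 (adjusted p = 1.67e-07). The epithelial adhesion gene Epcam rose by 1.80, the keratin gene Krt7 by 1.73 ± 0.14 and Cldn4 by 2.40 ± 0.22. The duct keratin gene Krt19 lay at 7.86, 7.65 and 7.96 on embryonic arrays and at 6.91, 6.85 and 7.01 on adult arrays, a difference of 0.90 ± 0.15 that missed the fold threshold on the deposited scale and passed it with arrays centred on the housekeeping median (1.08). The mean of the list was 8.19, 8.42 and 8.38 on embryonic arrays and 7.37, 7.45 and 7.39 on adult arrays, Cftr was at background, and the part of duct cells was not tested.

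Many genes of dividing cells were higher, and none was called lower in the spindle, cyclin and replication lists. All 24 spindle, kinetochore and cytokinesis genes were called higher, with a median of 3.00, on the deposited scale, under all 4 other scalings and without any single array. Cks2, a cofactor of cyclin-dependent kinases, lay at 9.35, 8.93 and 9.19 on embryonic arrays and at 4.36, 4.28 and 3.61 on adult arrays, a rise of 5.07 ± 0.28 (adjusted p = 6.78e-08). Ndc80, of the outer kinetochore, was at least 15.2-fold higher. Cdk1, the mitotic kinase, lay at 9.19, 9.08 and 8.79 on embryonic arrays and at 3.71, 3.83 and 5.04 on adult arrays, a rise of 4.83 ± 0.36. Top2a (DNA topoisomerase) and Birc5 (survivin) rose by 3.91 ± 0.29 and 4.12 ± 0.40.

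Of 30 cyclins, cyclin-dependent kinases and their inhibitors, 13 were higher and none lower. The cyclin genes Ccna2 and Ccnb2 rose by 4.36 ± 0.31 and 4.19 ± 0.26, Ccnd1 by 2.06 and Cdk4 by 1.99. Myc (-0.41), Ccnd2 (-0.03) and Cdkn2a, which was near background in both groups, were not called. DNA replication gave 20 of 23 genes higher. The helicase subunit gene Mcm6 lay at 8.49, 8.23 and 8.39 on embryonic arrays and at 4.32, 4.18 and 4.31 on adult arrays, a rise of 4.10 ± 0.15. Lig1, the replicative DNA ligase gene, lay at 7.92, 7.93 and 7.90 on embryonic arrays and at 3.70, 3.28 and 3.51 on adult arrays, a rise of 4.42 ± 0.20 (adjusted p = 1.63e-08). Pcna, the sliding clamp gene, rose by 1.51.

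Histone and chromatin genes followed in part, with 6 of 15 histone genes and 8 of 25 polycomb and DNA methylation genes higher. H1f5, a linker histone of dividing cells, lay at 11.23, 11.22 and 10.78 on embryonic arrays and at 4.28, 3.06 and 5.04 on adult arrays. Its rise of 6.95 ± 0.43 (adjusted p = 1.74e-07) was among the 12 largest. H2ax rose by 2.64 ± 0.40, and H1f2 (0.26) was not called. Uhrf1 and Dnmt1, which copy DNA methylation after replication, rose by 2.94 ± 0.22 and 2.62 ± 0.22, the remodeler gene Hells by 2.65 ± 0.29 and the PRC2 methyltransferase gene Ezh2 by 2.35 ± 0.23. Cbx7 fell by 1.05, and Bmi1 (0.07), Suz12 (0.37) and Ezh1 (-0.17) were not called. The polycomb and methylation count was 4 under quantile normalization and on the housekeeping mean.

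Imprinted genes, expressed from 1 parental allele and many of them controlling fetal growth, gave 18 higher and none lower of 26, with a median of 2.22. Mest lay at 10.32, 10.02 and 10.20 on embryonic arrays and at 4.05, 4.45 and 4.89 on adult arrays, a rise of 5.72 ± 0.34 (adjusted p = 1.14e-07). Nnat (neuronatin) lay at 10.24, 10.26 and 10.29 on embryonic arrays and at 4.95, 4.76 and 4.47 on adult arrays, a rise of 5.54 ± 0.22. Igf2, the fetal growth factor, lay at 8.88, 8.70 and 8.89 on embryonic arrays and at 3.98, 3.95 and 3.71 on adult arrays, a rise of 4.94 ± 0.19 (adjusted p = 5.08e-09). The embryonic arrays were within 0.3 units of each other for Nnat and Igf2, and the groups were far apart for all 3 genes. The zinc-finger gene Zim1 was at least 41.3-fold higher. Peg3, Dlk1, Peg10, Plagl1 and Meg3 rose by 4.42, 4.34, 4.17, 3.36 and 2.83. Peg12 (-0.58), Ascl2 and Phlda2 were not called, the last pair being at background in both groups. The count was 16 on the housekeeping mean and 18 under the other 3 scalings.

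Within the imprinted region of chromosome 12 that holds Dlk1 and Meg3, the microRNA genes Mir453 and Mir544 were higher, and both were chosen for description after their values were seen. Mir453 lay at 6.74, 4.91 and 5.22 on embryonic arrays and at 2.94, 3.52 and 3.47 on adult arrays, at least 4.01-fold higher (adjusted p = 0.000383). Mir544 lay at 6.22, 3.59 and 3.80 on embryonic arrays and at 2.39, 2.91 and 2.50 on adult arrays, at least 1.89-fold higher (adjusted p = 0.0111). Embryonic array 1 was by far its highest, and without it the bound was 1.05-fold, with embryonic arrays 2 and 3 close to background. Mir483, which lies within the Igf2 gene and was also chosen after its values were seen, went the other way to its host. It had 6.15, 5.27 and 5.97 on embryonic arrays and 7.23, 7.22 and 7.26 on adult arrays, a fall of 1.44 ± 0.29. The mature sequences are shown with the seed, bases 2 to 8, in capitals (RefSeq, GRCm38.p6) so that they can be set beside those of the chromosome 11 cluster; no seed is shared among the 6 sequences.
miR-453, chr12:109735669-109735692: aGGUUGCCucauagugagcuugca
miR-544-3p, chr12:109729371-109729392: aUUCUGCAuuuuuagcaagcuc
miR-483-5p, minus strand, chr7:142654968-142654989: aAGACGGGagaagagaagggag

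The IGF axis gave 7 of 13 genes higher and none lower. The binding protein gene Igfbp5 lay at 8.69, 7.91 and 8.0 on embryonic arrays and at 3.67, 4.54 and 4.24 on adult arrays, a rise of 4.05 ± 0.33. Igfbp4 and Igf2r rose by 2.18 ± 0.29 and 1.45, while Igf1 (0.02), Igf1r (0.65) and Insr (-0.85) were not called. Oncofetal genes were higher at 4 of 17. The glypican gene Gpc3 lay at 9.89, 9.87 and 9.57 on embryonic arrays and at 5.25, 5.52 and 4.91 on adult arrays, a rise of 4.55 ± 0.18, and the RNA-binding protein gene Igf2bp3 rose by 3.40 ± 0.20. Lin28b was at background on all 6 arrays, and Lin28a (-0.21) and Hmga2 (0.46) were not called.

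Among metabolic genes, cholesterol and fatty acid synthesis gave 8 higher and none lower of 18, with 5 to 9 higher over scalings. Hmgcs1, which makes the mevalonate precursor, lay at 9.62, 9.25 and 9.21 on embryonic arrays and at 6.84, 6.07 and 5.01 on adult arrays, a rise of 3.39 ± 0.42 (adjusted p = 5.14e-05). Cyp51, the sterol demethylase gene, lay at 7.97, 7.85 and 7.51 on embryonic arrays and at 4.83, 4.72 and 4.75 on adult arrays, a rise of 3.01 ± 0.24. Sqle, Fdps, Srebf2 and Fdft1 rose by 2.45, 1.99, 1.61 and 1.31. The called genes were on the sterol branch or its regulator, and the fatty acid genes Fasn (0.81), Acaca (-0.16), Scd1 (-0.74) and Acly (0.63) were not called.

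Few genes of ribosomes and respiration were called. None of 24 cytosolic ribosomal protein genes was called, and their differences ran from -0.09 to 0.46 with a median of 0.01. Of 19 ribosome biogenesis genes only Eif4ebp1, a translation inhibitor, was called, lower by 1.09. Of 28 oxidative phosphorylation genes only the cytochrome oxidase isoform gene Cox7a1, known from heart and muscle, was called, with 6.70, 7.06 and 7.34 on embryonic arrays and 4.63, 4.73 and 5.31 on adult arrays, a rise of 2.14 ± 0.24. On the housekeeping mean the medians of the ribosomal and oxidative lists were -0.38 and -0.36, still with no ribosomal protein gene called. The median of the ribosome biogenesis list was -0.11 on the deposited scale, -0.52 with quantile normalization, -0.39 with cyclic loess, -0.50 on the housekeeping mean and 0.06 on the housekeeping median. Xenobiotic and retinol genes gave 5 higher and 1 lower of 25: the glutathione transferase gene Gsta4 rose by 3.05 ± 0.23, the retinoid-binding protein gene Crabp1 was at least 3.38-fold higher, and the aldehyde dehydrogenase gene Aldh1a7 fell by 2.03 ± 0.38.

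Developmental signalling genes were higher at a minority of members. The FGF, BMP and TGF-beta list gave 14 of 32 higher and none lower, 8 on the housekeeping mean. Tgfbi, a matrix protein induced by TGF-beta, and Spry2, a feedback inhibitor of FGF signals, rose by 2.63 ± 0.20 and 2.61 ± 0.23, and the receptor genes Fgfr2 and Tgfbr2 by 2.08 ± 0.19 and 2.06 ± 0.17. The mesenchymal ligand gene Fgf10 (0.03) was not called. Wnt genes were higher at 7 of 24, with 4 on the housekeeping mean, led by the inhibitors Dkk2 (2.27 ± 0.26), Sfrp2 (2.26 ± 0.26) and Sfrp1 (2.16 ± 0.26). The mean over all probe sets of Sfrp2 gave a difference of 1.52, and the Wnt target gene Axin2 (0.24) was not called.

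Hedgehog genes were higher at 3 of 12, namely Gli3 (2.52 ± 0.27), Cdon (2.10 ± 0.21) and Boc (1.01 ± 0.20), with the Boc call lost without embryonic array 1 (0.83) or adult array 2 (0.92), while the ligand gene Shh was at or near background and Ptch1, a target and receptor, had a difference of 0.63. The Hedgehog count was 2 to 5 across scalings and single arrays left out. Notch genes gave 6 higher and 2 lower of 21. Notch2 rose by 2.11 ± 0.27, the target gene Hey1 by 1.94 ± 0.32 and the ligand gene Jag1 by 1.63 ± 0.22, the ubiquitin ligase gene Dtx1 fell by 2.39 ± 0.26, and Hes1 (0.58) was not called. Among 33 Hox genes only Hoxa5 was higher, with 5.75, 5.28 and 5.44 on embryonic arrays and 3.33, 3.39 and 3.91 on adult arrays, a rise of 1.95 ± 0.27, and 12 Hox genes were at or under background on all 6 arrays.

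Genes of connective tissue were higher at most of their members. Of 30 collagen and fibril assembly genes 25 were higher and none lower, with a median of 2.56. Postn (periostin), a matrix protein of growing mesenchyme, lay at 10.71, 9.63 and 10.57 on embryonic arrays and at 4.57, 3.89 and 2.90 on adult arrays, a rise of 6.52 ± 0.42 (adjusted p = 2.28e-07). Col1a1 lay at 9.55, 8.97 and 9.03 on embryonic arrays and at 4.71, 4.48 and 4.67 on adult arrays, a rise of 4.56 ± 0.29. Col1a2 lay at 11.42, 10.85 and 11.25 on embryonic arrays and at 6.24, 6.61 and 6.24 on adult arrays, a rise of 4.81 ± 0.27. Embryonic array 2 was the lowest embryonic array for all 3 genes and lay far above the adult arrays. Laminins and basement membrane genes gave 8 higher and 1 lower of 15, with Lama4 and Nid1 rising by 3.90 ± 0.23 and 3.73 ± 0.28, while the epithelial laminin gene Lamb3 fell by 1.20.

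Fibroblast and stellate markers were higher at 15 of 20. Their defining marker Pdgfra lay at 7.50, 6.77 and 7.09 on embryonic arrays and at 4.11, 3.74 and 3.75 on adult arrays, a rise of 3.25 ± 0.38, and Pdgfrb rose by 2.21 ± 0.28. Smooth muscle genes were higher at 4 of 16, led by Actg2, with 7.08, 6.63 and 7.93 on embryonic arrays and 3.08, 4.35 and 3.61 on adult arrays, a rise of 3.53 ± 0.35. Mesenchyme transcription factors were higher at 8 of 25. Osr1, a factor of foregut and pancreatic mesenchyme, lay at 9.61, 9.11 and 9.08 on embryonic arrays and at 4.92, 4.23 and 5.03 on adult arrays, a rise of 4.54 ± 0.24 (adjusted p = 3.67e-08). Prrx1 and Tcf21 rose by 2.98 ± 0.33 and 2.54 ± 0.29, and the spleen factor gene Tlx1 (-0.07) was not called. The mean of the fibroblast list was 6.87, 6.31 and 6.81 on embryonic arrays and 4.80, 4.75 and 4.72 on adult arrays, and their part in the other results was not tested.

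**Figure D5:**
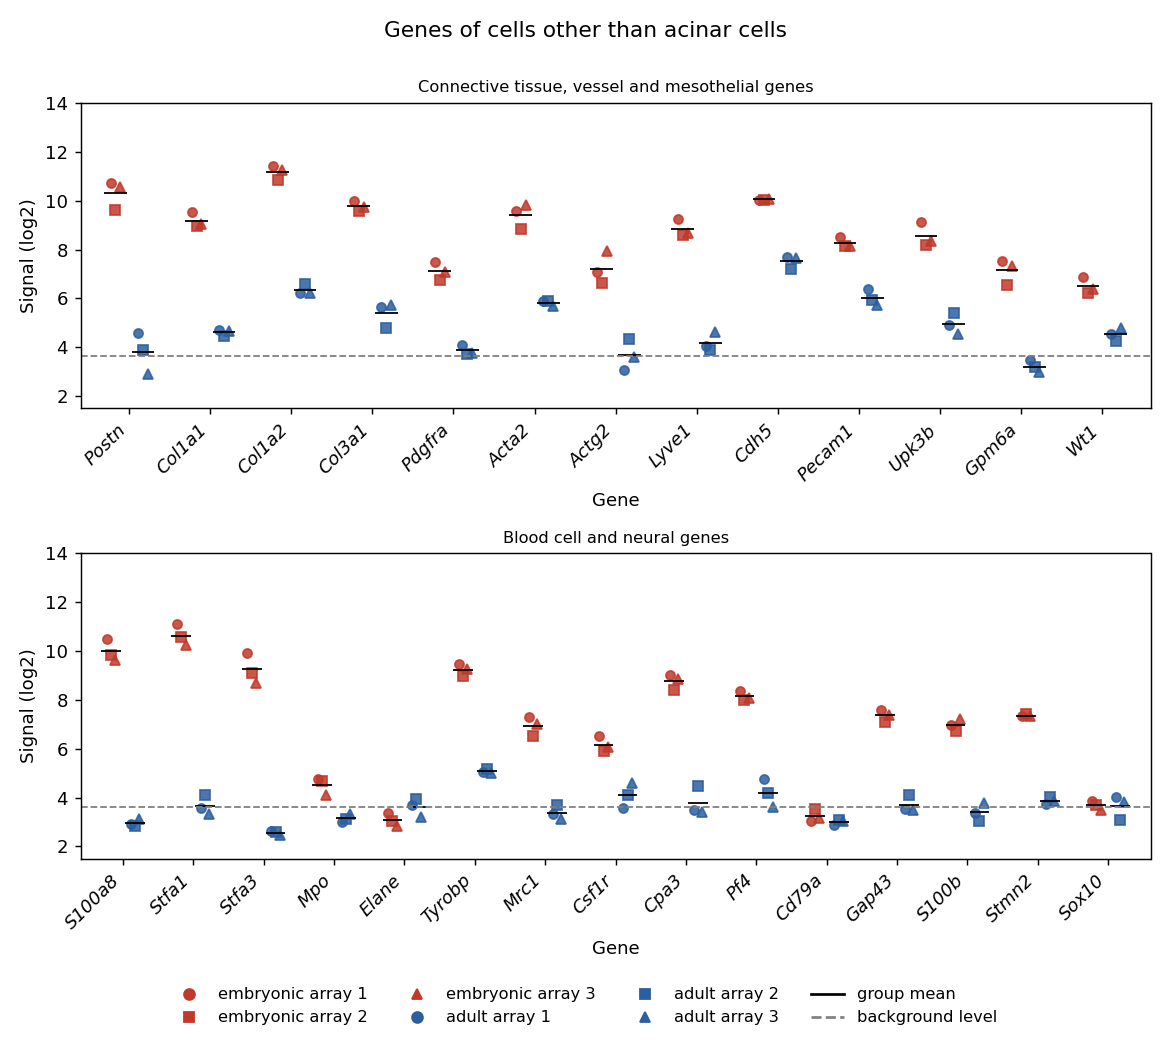
Log2 signal of connective tissue, vessel and mesothelial genes (upper panel) and of blood cell and neural genes (lower panel) on embryonic arrays (red, left of each pair) and adult arrays (blue, right), with symbols for arrays 1 to 3, black bars for group means and a dashed line at background, 3.62. Elane, Cd79a and Sox10 lie near background in both groups, and S100a8 lies at 9.62 to 10.49 on embryonic arrays against 2.82 to 3.12 on adult arrays.

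Endothelial markers were higher at 17 of 21 and lower at none. The cadherin gene Cdh5 lay at 10.05, 10.05 and 10.07 on embryonic arrays and at 7.71, 7.20 and 7.64 on adult arrays, a rise of 2.54 ± 0.17. Lyve1, of lymphatic vessels and tissue macrophages, lay at 9.25, 8.59 and 8.69 on embryonic arrays and at 4.04, 3.88 and 4.64 on adult arrays, a rise of 4.66 ± 0.22 (adjusted p = 2.09e-08). The adult arrays carried Cdh5 well above background, and all embryonic arrays were higher. The list mean was 6.83, 6.70 and 6.88 on embryonic arrays and 5.09, 4.91 and 5.02 on adult arrays, and its part in other results was not tested.

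Mesothelial markers were higher at 11 of 14. Upk3b, a uroplakin of the serosal surface, lay at 9.14, 8.20 and 8.37 on embryonic arrays and at 4.90, 5.42 and 4.53 on adult arrays, a rise of 3.62 ± 0.25, and Wt1 and Msln rose by 1.96 ± 0.29 and 2.03 ± 0.23. The list mean was 6.59, 5.94 and 6.17 on embryonic arrays and 4.56, 4.46 and 4.33 on adult arrays. Neural and Schwann markers were higher at 9 of 19. Gap43, a growth cone protein, lay at 7.60, 7.11 and 7.39 on embryonic arrays and at 3.54, 4.10 and 3.47 on adult arrays, a rise of 3.66 ± 0.21. Tubb3, S100b and Stmn2 rose by 2.13 ± 0.39, 3.58 ± 0.30 and 3.48 ± 0.15, while the Schwann factor gene Sox10 was near background, at 3.86, 3.68 and 3.49 on embryonic arrays and 4.02, 3.07 and 3.81 on adult arrays. The neural list mean was 5.14, 5.26 and 5.10 on embryonic arrays and 3.85, 3.93 and 3.93 on adult arrays. What these cell types contributed to other results was not tested.

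Blood cell genes were also higher, mainly those of myeloid cells. Of 22 neutrophil granule and stefin genes 10 were higher and none lower. S100a8, a calcium-binding protein of neutrophils, lay at 10.49, 9.85 and 9.62 on embryonic arrays and at 2.90, 2.82 and 3.12 on adult arrays. Stfa1, a stefin gene of neutrophils, lay at 11.10, 10.57 and 10.23 on embryonic arrays and at 3.56, 4.12 and 3.31 on adult arrays. Embryonic array 1 was the highest for both, and the adult arrays were at or near background. For S100a8 the embryonic cells were at least 82.5-fold higher (adjusted p = 5.08e-09), Stfa3 at least 49.4-fold and Stfa2l1 at least 55.7-fold, and Stfa1 and S100a9 rose by 6.97 ± 0.29 and 6.38 ± 0.26. Genes of granulocyte precursors differed within the list: Elane was at or near background in both groups, and Mpo was at least 1.85-fold higher. The list mean was 5.96, 5.48 and 5.24 on embryonic arrays and 3.51, 3.54 and 3.39 on adult arrays, and its part in other results was not tested.

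Macrophage genes were higher at 13 of 21. Tyrobp, a signalling adaptor of myeloid cells, lay at 9.47, 8.97 and 9.25 on embryonic arrays and at 5.05, 5.18 and 5.01 on adult arrays, a rise of 4.15 ± 0.25 (adjusted p = 1.35e-07). Mrc1, the mannose receptor gene, rose by 3.56 ± 0.27, and the defining markers Csf1r and C1qa by 2.06 ± 0.28 and 2.47 ± 0.24. The class II genes H2-Aa (-0.70), H2-Ab1 (0.06) and H2-Eb1 (-0.37) were not called. The mast cell carboxypeptidase gene Cpa3 lay at 9.02, 8.41 and 8.87 on embryonic arrays and at 3.48, 4.46 and 3.41 on adult arrays, a rise of 4.98 ± 0.25, and the platelet chemokine gene Pf4 rose by 3.96 ± 0.46. These were the only 2 called of 20 lymphocyte, mast and megakaryocyte markers, and the B-cell gene Cd79a was at or under background on all 6 arrays. The macrophage list mean was 6.18, 5.68 and 6.01 on embryonic arrays and 4.55, 4.58 and 4.50 on adult arrays. The mean of the lymphocyte, mast and megakaryocyte list was 4.40, 4.38 and 4.21 on embryonic arrays and 3.78, 3.70 and 3.69 on adult arrays.

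Of 15 erythroid and globin genes measured by a probe set with 1 symbol, 2 were higher and none lower. The embryonic alpha-like globin gene Hba-x was at least 1.08-fold higher, with 3.73, 3.61 and 3.84 on embryonic arrays and 2.73, 2.62 and 2.50 on adult arrays, so both groups were close to background. Slc4a1, the red cell anion exchanger gene, lay at 5.34, 6.16 and 4.72 on embryonic arrays and at 3.73, 4.60 and 4.35 on adult arrays, a rise of 1.18 ± 0.31, with no call without embryonic array 2 (0.80) or adult array 1 (0.93). Embryonic array 2 was the highest embryonic array for Slc4a1, Hemgn (4.69, 5.87 and 3.98) and Rhag (3.28, 5.38 and 3.19). Hemgn was called without embryonic array 3, with a difference of 1.28. Rhag was called there too, but its adult arrays were all under background and the bound was 1.64-fold, below the fold threshold; without embryonic array 2 both groups of Rhag were under background. The difference of Ermap without embryonic array 2 was -0.16. Gata1, Tal1, Epor, Nfe2, Car1, Epb42 and the embryonic beta-like gene Hbb-bh1 were at or below 4.33 on every array of both groups and were not called. Klf1, Tfrc, Ermap and Hbb-y, another embryonic beta-like gene, had differences of 0.20, 0.21, 0.52 and 0.57 and were not called. On the housekeeping mean no erythroid gene was called. Adult globin genes are not analysed here.

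Liver and intestinal genes moved with single embryonic arrays. Albumin, alpha-fetoprotein, fetuin and fibrinogen genes, which mark fetal hepatocytes, were high on embryonic array 2 only: Alb lay at 4.76, 10.51 and 4.68 on embryonic arrays and at 4.53, 3.86 and 3.61 on adult arrays, and Afp at 4.51, 9.97 and 4.63 on embryonic arrays and 3.58, 3.36 and 3.35 on adult arrays. Afp was called, at least 6.72-fold higher (adjusted p = 0.0437), and Alb was not (2.65 ± 1.09, adjusted p = 0.0848). Without embryonic array 2 the bound for Afp was 1.93-fold, below the fold threshold although the fit still called it, and the difference of Alb was 0.72, so most of their size rested on that array. The bound for Afp was 12.8-fold without embryonic array 1 and 12.3-fold without array 3, and Alb was called in both cases, with differences of 3.60 and 3.63. Afp lost its call without any 1 adult array, with quantile normalization, cyclic loess or array weights, and in the fit of the 6 arrays alone. The other defining liver marker, the apolipoprotein gene Apoa1, did not share the pattern of a single high array 2. It lay at 5.32, 8.35 and 9.63 on embryonic arrays and at 4.37, 4.39 and 3.88 on adult arrays. Apoa1 rose by 3.55 ± 0.74 (limma, adjusted p = 0.00304), with embryonic array 3 the highest. The list of liver, yolk sac and intestinal lipid carriers had 9 of 19 genes higher and 1 lower, with 12 higher without embryonic array 1, 6 without embryonic array 2, 7 without embryonic array 3 and 5 to 7 without an adult array. Its mean level was 5.33, 8.07 and 6.92 on embryonic arrays and 4.28, 4.45 and 4.24 on adult arrays.

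Lipid-absorbing enterocyte genes were higher on all 3 embryonic arrays. Fabp1, a fatty acid-binding protein of liver and small intestine, lay at 7.93, 10.91 and 11.73 on embryonic arrays and at 3.15, 3.59 and 3.14 on adult arrays. Fabp2, its intestinal counterpart, lay at 8.94, 11 and 11.79 on embryonic arrays and at 3.96, 3.98 and 2.96 on adult arrays. Apoa4, an apolipoprotein of intestinal chylomicrons, lay at 6.86, 10.16 and 11.17 on embryonic arrays and at 3.46, 3.82 and 3.28 on adult arrays. Embryonic array 1 was 2 or more units below arrays 2 and 3 for each of these genes and still well above the adult arrays. Fabp1 was at least 95.0-fold higher (adjusted p = 6.45e-06), and Fabp2 and Apoa4 rose by 6.94 ± 0.55 and 5.88 ± 0.74. The bound for Fabp1 was 55.7-fold without embryonic array 3 and 208-fold without embryonic array 1. Without embryonic array 3 the differences of Fabp2 and Apoa4 were 6.34 and 4.99, and without embryonic array 1 they were 7.76 and 7.14.

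Other intestinal genes varied in how the embryonic arrays were ordered. Krt20, a keratin gene of the gut lining, lay at 6.49, 7.49 and 7.01 on embryonic arrays and at 3.34, 5.20 and 4.51 on adult arrays, a rise of 2.65 ± 0.42, with array 2 the highest embryonic array. For Lgals4 and Alpi array 3 was the highest. Lgals4 lay at 4.67, 8.46 and 10.19 on embryonic arrays and at 4.0, 3.98 and 4.36 on adult arrays, a rise of 3.66 ± 0.95 that was 2.45 without embryonic array 3 and 5.21 without embryonic array 1. The intestinal alkaline phosphatase gene Alpi lay at 4.05, 6.47 and 9.33 on embryonic arrays and at 3.77, 3.91 and 4.28 on adult arrays, a rise of 2.63 ± 0.89 whose call was lost in 9 alternatives, with a difference of 1.27 without embryonic array 3 and 3.91 without embryonic array 1. Embryonic array 1 overlapped the adult arrays for Alpi and, at 3.35, 5.53 and 7.63 on embryonic arrays against 3.56, 3.33 and 3.54 on adult arrays, for the intestinal cadherin gene Cdh17. Vil1, of the brush border, rose by 2.64 ± 0.48 (1.99 without embryonic array 3), while Cdx2, the transcription factor that defines intestine, was near background at 3.35, 3.21 and 4.29 on embryonic arrays and 3.42, 3.95 and 3.79 on adult arrays. Of 22 intestinal and gastric genes 7 were higher and 1, the trefoil gene Tff2, lower by 1.65; the higher count was 9 without embryonic array 1, 4 without embryonic array 2 or 3 or adult array 1 or 3, 5 without adult array 2, and 4 with cyclic loess. The list mean was 4.23, 4.90 and 5.72 on embryonic arrays and 4.18, 4.29 and 4.39 on adult arrays. The part of liver or intestinal tissue in other results was not tested.

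Among stress, clock and immune response genes, 11.8% of clock genes were called higher and 17.6% lower, against 10.0% and 2.61% of all genes. The shares were 14.3% and 7.14% for glucocorticoid response genes and 11.8% and 5.88% for interferon and antigen presentation genes. Of the immediate early and dissociation genes 4.35% were higher and none lower. The clock, glucocorticoid and interferon lists had 0 genes higher on the housekeeping mean. Of 23 immediate early and dissociation genes only Klf4 was called, higher by 1.44 ± 0.30, and the median of -0.57 came with 12 genes lower on every embryonic array and none of them called. Atf3 had 6.57, 6.89 and 6.75 on embryonic arrays against 9.07, 7.81 and 8.53 on adult arrays, a difference of -1.73 ± 0.84 (adjusted p = 0.138). Among 17 clock genes, Nr1d1 fell by 2.31 ± 0.31, Clock fell by 1.49 ± 0.20 and Nfil3 fell by 1.22 ± 0.26, and Per1 and Bhlhe40 rose by 1.30 and 1.08; the time of day of isolation is not given in the labels. Klf9, a glucocorticoid and thyroid hormone target, fell by 1.80 ± 0.20, with 2 of the other 13 glucocorticoid response genes higher. Of 17 interferon and antigen presentation genes, Ifi27 fell by 1.83 ± 0.38 and Psmb9 and Irf7 rose by 1.27 ± 0.16 and 1.03 ± 0.33. The Irf7 call was lost without embryonic array 1 (0.99), embryonic array 3 (0.62) or adult array 3 (0.82), and in the fit of the 6 arrays alone.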

How the data were processed

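The values are log2 signals per probe set from Affymetrix arrays hybridised with biotin-labelled total RNA, as deposited by the authors in the series' value table; the log base was taken from the range of the values, and the summarisation, background correction and normalization are not given in the sources used here. Of 41345 probe sets, 23521 have 1 gene symbol, 1814 several and 16010 none in the platform annotation; those with 1 symbol gave 22180 genes, each represented by its brightest probe set over the 12 arrays (1082 genes have more than 1).

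The linear model of limma 3.58.1 (R 4.3.3), with eBayes moderation, was fitted to all 12 arrays in 4 groups of 3, with 8 residual degrees of freedom and no block, and p-values were adjusted by the Benjamini-Hochberg method over all 22180 genes. A call needed an adjusted p under 0.05 and a log2 difference of at least 1 in size. The script was tested on simulated data. The number of arrays limits the precision.

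The members and the 51 gene lists (1121 entries, 1018 measured) were chosen with earlier results of these data known. A naming rule covered defining markers, the 12 largest and 12 smallest called differences without overlap, and up to 4 called genes per list by size. It also covered members of the serine protease, enzyme, Reg and erythroid lists, and uncalled members by value. Further called list members, such as Tmed11, Gal, Chrm3 and Peg3, were named outside this rule and are not marked where they appear. Genes outside both the rule and the lists are said to be chosen after their values were seen. Alternatives were 4 other scalings, array weights, the 6 arrays alone, dim genes left out, the mean of a gene's probe sets, no fold minimum, a replicate block and each array left out. The scaling on the housekeeping mean and the list counts without 1 array were added after seeing the data.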

Additional observations from a re-analysis of the deposited data

Results flagged for a closer look

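Probe sets that could not be given 1 gene symbol were tested with the same fit and were not used in the comparison of genes. Of 1814 probe sets with several symbols, 134 were higher and 22 lower in embryonic cells. Of 16010 probe sets with no symbol in the annotation, 460 were higher and 413 lower. Over all genes the shares were 10.0% higher and 2.61% lower, and no share of these probe sets was larger. These probe sets are listed here because they lie outside the genes described, and none of them is named.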

How the results depend on the processing

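A set of 255 genes was followed by name through the alternatives. None of them changed direction while called. Other genes named in the text, such as Tmed11, Gal and Chrm3, were not followed. Quantile normalization gave 986 genes lower, and arrays centred on the median of the housekeeping genes gave 376. Arrays centred on the mean of those genes, an alternative chosen after seeing the data, gave 1346 higher and 2112 lower; the 1346 were all called higher on the deposited scale too, and the 2112 hold all 580 called lower there. With no minimum on the fold, 3897 genes were higher and 2622 lower. Leaving out 1 array gave 2057 to 2282 genes higher and 497 to 660 lower. Of the 255 followed genes, 237 to 255 kept their call or lack of one under each alternative that could be compared. On the housekeeping mean 11 lost a call and 7 gained one. Without embryonic array 3, 4 lost and 6 gained a call.

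Replicate numbers are shared between the groups in the labels, but arrays with the same number did not deviate together (correlations of 0.024, -0.008 and 0.021 across genes), so the numbers were not used as pairs. With the replicate block 2217 genes were higher and 582 lower, and none of the 255 followed genes gained or lost a call.

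Probe sets near the background of 3.62 carry little information on size, and those near 13.36, the highest value on the 6 arrays, may be compressed, which was not tested. Tissue composition, embryonic stage and the origin of each array cannot be told apart from the group.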

Other observations

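Among the 12 largest rises were 2 genes outside the gene lists described. Ptn, which encodes the secreted growth factor pleiotrophin, lay at 10.09, 9.69 and 10.05 on embryonic arrays and at 3.41, 3.67 and 3.69 on adult arrays, a rise of 6.35 ± 0.20 (limma, adjusted p = 2.43e-09). Itm2a, an integral membrane protein gene, lay at 10.94, 10.37 and 10.71 on embryonic arrays and at 4.07, 5.14 and 4.35 on adult arrays, a rise of 6.15 ± 0.38. Every embryonic array lay far above every adult array for both genes.

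Among the 12 largest falls were receptor genes. Glp1r, the receptor of glucagon-like peptide 1, lay at 5.26, 4.35 and 6.50 on embryonic arrays and at 8.91, 8.48 and 8.71 on adult arrays, a fall of 3.33 ± 0.38. Ptger3, a prostaglandin E receptor gene, lay at 5.50, 5.47 and 7.46 on embryonic arrays and at 9.48, 9.47 and 9.46 on adult arrays, a fall of 3.33 ± 0.42 and a difference of -3.98 without embryonic array 3. Hgfac, a serine protease gene that activates hepatocyte growth factor, fell by 3.47 ± 0.32, and the kallikrein gene Klk1b24 fell by 3.63 ± 0.51, with -4.38 without embryonic array 3. Embryonic array 3 was the highest embryonic array for all 4 genes and lay below every adult array.

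The following genes were chosen after their values were seen. Grpr, the receptor of gastrin-releasing peptide, which stimulates acinar secretion in rodents, lay at 5.22, 6.05 and 5.96 on embryonic arrays and at 8.92, 9.20 and 8.75 on adult arrays, a fall of 3.21 ± 0.22 (limma, adjusted p = 4e-07). Egf, the epidermal growth factor gene, lay at 4.17, 4.83 and 5.29 on embryonic arrays and at 7.58, 7.82 and 7.76 on adult arrays, a fall of 2.96 ± 0.24. Lcat, a cholesterol-esterifying plasma enzyme gene, fell by 3.17 ± 0.16, and Aass, of lysine breakdown, fell by 3.21 ± 0.24. The groups did not overlap for any of the 4 genes.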
